A study of Bos taurus with 12 samples.

Results

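The subject of this report is 10 genes for transcription factors and their regulators that cells switch on within minutes of a stimulus: FOS, FOSB, FOSL2, JUN, JUNB, ATF3, EGR1, KLF6, IER2 and MYC. They were chosen by name, with earlier results of these data known. They were matched through a bovine RefSeq gene table to their Entrez gene IDs, and make up 10 of the 30336 gene IDs in the count files. The RNA came from liver puncture biopsies of 12 Holstein heifer calves at 4 d of age. CON were 6 calves of cows on the control close-up diet (1.47 Mcal/kg dry matter, 15.3% crude protein), and MET were 6 calves of cows that received the same diet plus ethyl cellulose rumen-protected methionine (Mepron) for the last 28 d of gestation. All calves were fed and managed alike after birth, and the levels are those at this biopsy and not of a time course.

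Immediate early genes are transcribed without the need for newly made protein. ERK, JNK and p38 kinases activate the factors SRF and CREB on their promoters, and the transcripts decay quickly. FOS and JUN proteins pair as AP-1 through leucine zippers, EGR1 and KLF6 bind GC-rich DNA through zinc fingers, and MYC pairs with MAX at E-boxes of genes for ribosome building and growth. In liver they are known for the priming phase that follows partial hepatectomy, when hepatocytes leave quiescence.

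Between 8277789 and 10397604 reads were counted on genes per library, and 3 reads, the floor used here, equalled 0.289 to 0.362 CPM (reads scaled to the same total in each library). Floors cover counting error only. The libraries of CON replicates 1 and 4 (chi-square per gene 1.31) and of MET replicates 1 and 3 (1.23) agreed almost to within counting noise, whereas the other 64 pairs gave 23.3 to 122. Either pair counts as 1 sample here, so that means and SD are over 5 CON and 5 MET samples, and tests of the 10 genes over the 12 libraries are followed by those over the 10 samples. The labels name the libraries as separate calves, and the first index sequence differed between CON and MET libraries, so that the diet cannot be told apart from the index. All 10 hepatocyte markers were detected, with a summed level of 172910 to 228950 CPM in CON and 141970 to 204850 CPM in MET. No marker found in the files, over 9 cell type lists, was at 0 in all libraries. In bulk tissue, fewer cells of a type and less RNA per cell cannot be told apart.

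The genes other than FOSB, 9 of 10, were expressed strongly enough to be tested. Over the 12 libraries, FOSL2, KLF6 and MYC were lower in MET by about 1 log2 unit each, and IER2 was higher by 0.43 log2 units. These 4 of the 9 tested genes passed the threshold of 0.10 for the adjusted p (Benjamini-Hochberg adjusted quasi-likelihood test of edgeR over 13212 genes), against 4.41% of all genes tested, or 2.32% called lower and 2.09% called higher in MET. Over the 10 samples the same test called 0 genes of 13242, members included, although 4 members and 16.3% of all genes reached p of 0.05 or less before adjustment. DESeq2 called 5 members and 9.95% of all genes over the 12 libraries, and over the 10 samples FOSL2, KLF6, MYC and IER2 among 639 genes, 4.83% of those tested. All 4 stand on the study's own list of differentially expressed genes from these libraries, so that their calls are not independent of that list. The 10 genes were chosen with earlier results of these data known, so that the share called and the median are not independent of that choice. The median log2 fold change (MET over CON) was −0.76 over the 9 tested members and −0.0031 over all genes tested, and over the 10 samples it was −0.68 and −0.0028. In no member were the samples of the diets fully separated, which they were for 1.77% of all genes with MET below CON and 1.93% with MET above CON.

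**Figure D1:**
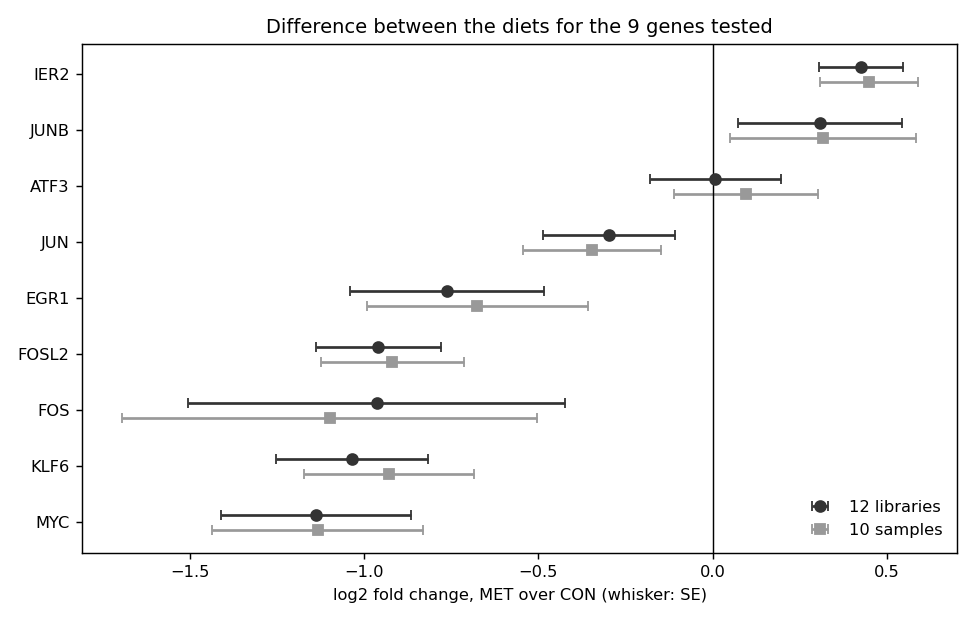
Log2 fold change (x axis, MET over CON, whiskers ± SE) of the 9 tested genes (y axis) in edgeR's fit over the 12 libraries (circles) and over the 10 samples (squares). MYC, KLF6, FOS, FOSL2 and EGR1 lie between −1.14 and −0.68 in both fits, with the widest error for FOS, while JUNB and IER2 lie above 0 and ATF3 at it.

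FOS, the founding member of the AP-1 family and the usual marker of an early response (Entrez 280795, chromosome 10, 86883739 to 86887170, plus strand, UMD 3.1.1), stood out by a single calf. Its level was 1.96 CPM in CON replicates 1 and 4, 17.7 in CON replicate 2, 4.46 in CON replicate 3, 2.40 in CON replicate 5 and 2.08 in CON replicate 6. In MET it was 2.40 CPM in replicates 1 and 3, 2.15 in replicate 2, 3.34 in replicate 4, 3.58 in replicate 5 and 1.65 in replicate 6. CON replicate 2 had 141 FOS reads while the other 11 libraries had 16 to 39, and the remaining CON samples covered the range of the MET samples but for MET replicate 6. The means were 5.72 ± 6.79 CPM in CON and 2.62 ± 0.815 CPM in MET (SD, n = 5 each). The log2 fold change of −0.96 (SE 0.54) over the 12 libraries and −1.10 (SE 0.60) over the 10 samples did not pass the test (adjusted p = 0.33 and 0.38, Benjamini-Hochberg adjusted quasi-likelihood test of edgeR). Without CON replicate 2 the value was 0.0061. CON replicate 2 also had the highest summed level of the erythroid markers, 1084 CPM against 8.82 CPM in the lowest CON sample and 65.7 to 590.6 CPM in MET. The part of blood in its FOS level was not tested.

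FOSB, the closest relative of FOS (Entrez 540819, chromosome 18, 53501995 to 53508418, plus strand), was near the floor and was not tested. It had 5, 14, 5, 2, 3 and 3 reads in CON replicates 1 to 6, and 5, 2, 6, 5, 3 and 3 reads in MET replicates 1 to 6. The 14 reads of CON replicate 2, or 1.76 CPM, were the highest value, in the same calf as for FOS. The other 11 libraries had 2 to 6 reads, and no fold change is given at this depth.

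FOSL2 encodes FRA2, a FOS relative with more lasting expression that lacks the strong activation domain of FOS (Entrez 509889, chromosome 11, 71326648 to 71349193, minus strand). It had the lowest p of the 9 tested genes. CON levels were 18.3 CPM in replicates 1 and 4, 12.6 in replicate 2, 17.6 in replicate 3, 12.2 in replicate 5 and 16.9 in replicate 6, and MET levels were 8.19 CPM in replicates 1 and 3, 6.44 in replicate 2, 12.7 in replicate 4, 6.38 in replicate 5 and 7.52 in replicate 6. Only MET replicate 4 reached the CON range, where it lay just above CON replicates 2 and 5, and the other 4 MET samples were below every CON sample. Mean FOSL2 was 15.5 ± 2.91 CPM in CON and 8.24 ± 2.59 CPM in MET (SD, n = 5 each), and the log2 fold change was −0.96 (SE 0.18, adjusted p = 0.042, Benjamini-Hochberg adjusted quasi-likelihood test of edgeR) over the 12 libraries. Over the 10 samples it was −0.92 (SE 0.21, adjusted p = 0.17, unadjusted p = 0.00075), and the exact two-sided permutation p was 0.024 (n = 5 each), where 5 against 5 samples cannot go below 0.00794.

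**Figure D2:**
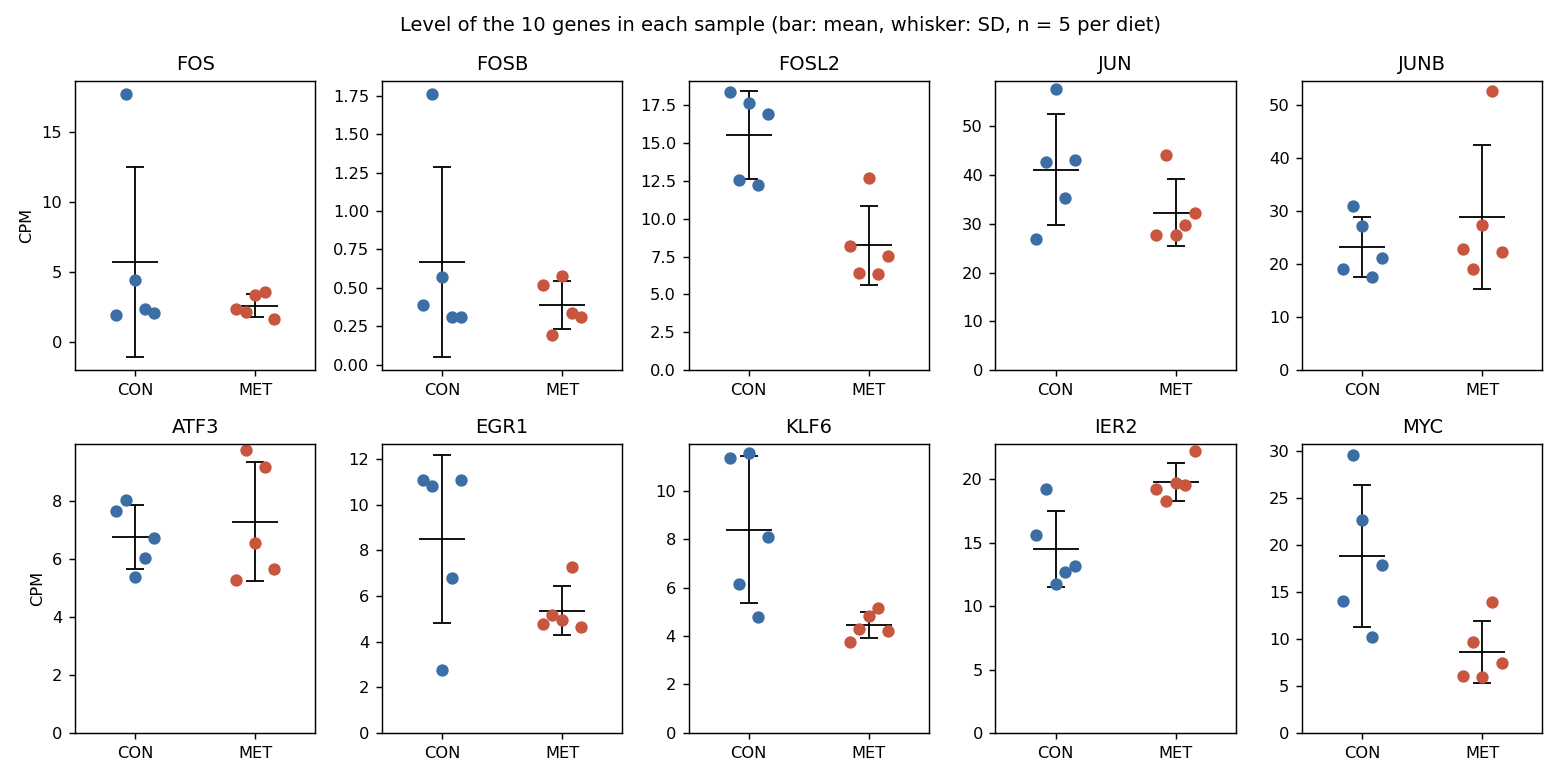
Level in CPM (y axis, a separate scale for each gene) of the 10 genes in the 5 CON and 5 MET samples (points), with mean and SD. CON replicate 2 lies far above all other samples for FOS and FOSB, 4 of 5 MET samples lie below all CON samples for FOSL2, and the MET samples of KLF6 lie close together between 3.75 and 5.15 CPM.

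JUN and JUNB encode the partners that FOS proteins need to bind DNA, with JUNB the weaker activator. JUN (Entrez 280831, chromosome 3, 87841042 to 87843089, plus strand) had 27.0 CPM in CON replicates 1 and 4, 42.6 in CON replicate 2, 57.6 in CON replicate 3, 35.2 in CON replicate 5 and 43.1 in CON replicate 6. The MET samples had 27.6 CPM in replicates 1 and 3, 44.0 in replicate 2, 27.7 in replicate 4, 29.8 in replicate 5 and 32.3 in replicate 6. CON replicates 2, 3, 5 and 6 were above 4 of the MET samples, but CON replicates 1 and 4 were the lowest of all and MET replicate 2 was in the upper part of the CON range. The means of 41.1 ± 11.3 CPM in CON and 32.3 ± 6.83 CPM in MET (SD, n = 5 each) went with a fitted log2 fold change over the 12 libraries of −0.30 (SE 0.19, adjusted p = 0.39, Benjamini-Hochberg adjusted quasi-likelihood test of edgeR), and over the 10 samples of −0.35 with an interval of 2 SE from −0.74 to 0.05. This interval includes 0, and the value over the remaining 11 libraries was −0.15 without CON replicate 3 and −0.42 without MET replicate 2, neither of which passed.

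JUNB (Entrez 514246, chromosome 7, 13851114 to 13852933, minus strand) had 19.0 CPM in CON replicates 1 and 4, 30.9 in CON replicate 2, 27.1 in CON replicate 3, 17.6 in CON replicate 5 and 21.1 in CON replicate 6. MET values were 22.9 CPM in replicates 1 and 3, 19.1 in replicate 2, 27.3 in replicate 4, 52.6 in replicate 5 and 22.3 in replicate 6. MET replicate 5 was the highest of the 10, and the other 4 MET samples lay within the CON range. Its log2 fold change was 0.31 (SE 0.24) over the 12 libraries and 0.32 (SE 0.27) over the 10 samples (adjusted p = 0.48 and 0.58, Benjamini-Hochberg adjusted quasi-likelihood test of edgeR), and it was 0.028 without MET replicate 5.

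ATF3 is a stress-induced zipper protein that pairs with JUN (Entrez 515266, chromosome 16, 72820023 to 72832974, minus strand). Its values ran from 5.38 CPM in CON replicate 3 to 8.04 in CON replicate 2 with a median of 6.74, and from 5.29 CPM in MET replicates 1 and 3 to 9.76 in MET replicate 2 with a median of 6.56. The highest values, 9.76 and 9.18 CPM, were those of MET replicates 2 and 5, and the 3 remaining MET samples lay in or just below the CON range. The log2 fold change was 0.0074 (SE 0.19) over the 12 libraries and 0.096 over the 10 samples, with an interval of 2 SE from −0.32 to 0.51 (adjusted p = 0.99 and 0.85, Benjamini-Hochberg adjusted quasi-likelihood test of edgeR). Its sign turned with the setting, and ATF3 had the narrowest spread of the members in CON, with a coefficient of variation of 16.3%.

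EGR1, a zinc finger factor that carries growth factor signals to metabolic and repair genes (Entrez 407125, chromosome 7, 51438972 to 51441815, plus strand), was near 11 CPM in most CON calves. It measured 11.1 CPM in CON replicates 1 and 4, 10.8 in CON replicate 2, 2.75 in CON replicate 3, 6.78 in CON replicate 5 and 11.1 in CON replicate 6. MET replicates 1 and 3 had 4.77 CPM, replicate 2 had 5.17, replicate 4 had 4.95, replicate 5 had 7.27 and replicate 6 had 4.64. CON replicate 3 was the lowest of the 10 samples, and 4 of 5 MET samples lay between it and the next CON sample. For EGR1 the log2 fold change was −0.76 (SE 0.28, adjusted p = 0.15) over the 12 libraries and −0.68 (SE 0.32, adjusted p = 0.32) over the 10 samples by the Benjamini-Hochberg adjusted quasi-likelihood test of edgeR. Without the library of CON replicate 3 it was −0.95 and passed (adjusted p = 0.053), and with the near-identical libraries also joined it was −0.90 and did not pass, the lowest adjusted p of EGR1 in any such fit being 0.23. DESeq2 called it over the 12 libraries (adjusted p = 0.089) but not over the 10 samples (0.25).

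KLF6, a Krüppel-like factor of injured liver and its non-parenchymal cells (Entrez 505884, chromosome 13, 44945030 to 44952166, plus strand), varied much among CON calves and little among MET calves. The CON samples had 11.3 CPM in replicates 1 and 4, 6.16 in replicate 2, 11.6 in replicate 3, 4.795 in replicate 5 and 8.09 in replicate 6, and the MET samples had 3.75 CPM in replicates 1 and 3, 4.30 in replicate 2, 4.83 in replicate 4, 5.15 in replicate 5 and 4.23 in replicate 6. CON replicate 5 lay within the MET range, and the other 4 CON samples lay above every MET sample. The coefficient of variation was 36.1% in CON and 12.3% in MET. Mean KLF6 was 8.39 ± 3.03 CPM against 4.45 ± 0.547 CPM (SD, n = 5 each). KLF6 had a log2 fold change of −1.04 (SE 0.22, adjusted p = 0.053) over the 12 libraries and −0.93 (SE 0.24, adjusted p = 0.18, unadjusted p = 0.0024) over the 10 samples by the Benjamini-Hochberg adjusted quasi-likelihood test of edgeR, and the exact two-sided permutation p was 0.024 (n = 5 each).

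IER2, a small nuclear protein of the same early wave (Entrez 525380, chromosome 7, 13543658 to 13548063, minus strand), was the single called member that was higher in MET. It measured 15.6 CPM in CON replicates 1 and 4, 19.2 in CON replicate 2, 11.8 in CON replicate 3, 12.7 in CON replicate 5 and 13.2 in CON replicate 6, against 19.2 CPM in MET replicates 1 and 3, 18.3 in MET replicate 2, 19.7 in MET replicate 4, 19.6 in MET replicate 5 and 22.3 in MET replicate 6. CON replicates 1 and 4, 3, 5 and 6 were below all MET samples, and CON replicate 2 lay among the MET values. Means were 14.5 ± 2.995 CPM in CON and 19.8 ± 1.49 CPM in MET (SD, n = 5 each). The log2 fold change was 0.43 (SE 0.12, adjusted p = 0.087) over the 12 libraries and 0.45 (SE 0.14, adjusted p = 0.19, unadjusted p = 0.0075) over the 10 samples by the Benjamini-Hochberg adjusted quasi-likelihood test of edgeR, with an exact two-sided permutation p of 0.024 (n = 5 each). Its call over the 12 libraries was lost when a trend on gene length was removed (adjusted p = 0.11) and when genes with low counts were kept (0.13).

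MYC, the E-box factor that raises ribosome and nucleotide synthesis (Entrez 511077, chromosome 14, 13769242 to 13775688, minus strand), showed the largest fold difference of the tested members in the fit over the 12 libraries. CON replicates 1 and 4 had 14.02 CPM, replicate 2 had 29.5, replicate 3 had 22.6, replicate 5 had 10.2 and replicate 6 had 17.8. In MET, replicates 1 and 3 had 6.09 CPM, replicate 2 had 9.66, replicate 4 had 5.99, replicate 5 had 13.9 and replicate 6 had 7.42. CON replicate 5 and MET replicate 5 crossed, and all other CON samples were above all other MET samples. Mean MYC was 18.9 ± 7.54 CPM in CON and 8.61 ± 3.30 CPM in MET (SD, n = 5 each), a 2.20-fold lower fitted level over the 12 libraries. Fitted log2 fold changes of MYC were −1.14 (SE 0.27, adjusted p = 0.068) over the 12 libraries and −1.13 (SE 0.30, adjusted p = 0.18, unadjusted p = 0.0028) over the 10 samples by the Benjamini-Hochberg adjusted quasi-likelihood test of edgeR. The exact two-sided permutation p was 0.016 (n = 5 each), the lowest of the 9 tested members.

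By the permutation test, which does not use the count model, 4 of the 9 tested members had p below 0.05 (FOSL2, KLF6, IER2 and MYC), as did 15.1% of the 13242 genes tested over the 10 samples. The 5 others had exact p from 0.19 to 0.70. When 1 of the 12 libraries was left out at a time, the direction of FOSL2, KLF6, MYC, IER2, EGR1, JUN and JUNB held in each of the 12 fits. Without CON replicate 1, and likewise without CON replicate 4, which leaves 1 library of that near-identical pair, no member passed (Benjamini-Hochberg adjusted quasi-likelihood test of edgeR), and 26 and 35 genes in all did. FOSL2 and KLF6 were called in the other 10 fits, and IER2 in 1, without CON replicate 2. MYC was called in 5, those without CON replicate 2, 5 or 6 and without MET replicate 2 or 5, and had an adjusted p of 0.102 to 0.117 in the rest (same edgeR test). When 1 of the 10 samples was left out at a time, no member was called in any of the 10 fits, with a lowest adjusted p of 0.135 for FOSL2 and 0.174 for KLF6, while FOSL2, KLF6, MYC and IER2 had an unadjusted p of 0.05 or less in each of the 10 (same edgeR test).

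Compared per kb of exon, which allows genes to be set side by side, the 10 genes spanned from 18.8 CPM per kb for JUN to 0.163 for FOSB, as means of the 10 samples. Below JUN came JUNB with 14.3 CPM per kb, IER2 with 6.13, MYC with 4.56, EGR1 with 3.22, ATF3 with 2.84, KLF6 with 2.41, FOS with 1.99 and FOSL2 with 1.81. Some neighbours in this order were clearly apart, since JUNB exceeded IER2 in 10 of 10 samples and FOSL2 exceeded FOSB in 10 of 10. Other neighbours were not, with EGR1 above ATF3 in 5 of 10 samples and JUN above JUNB in 8 of 10. FOS stood above FOSL2 in 3 of 10 samples and owed its place to CON replicate 2, which had 8.45 CPM per kb. In MET the level per kb of MYC (2.86) was close to that of ATF3 (2.94), whereas in CON it was 6.26 against 2.73.

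**Figure D3:**
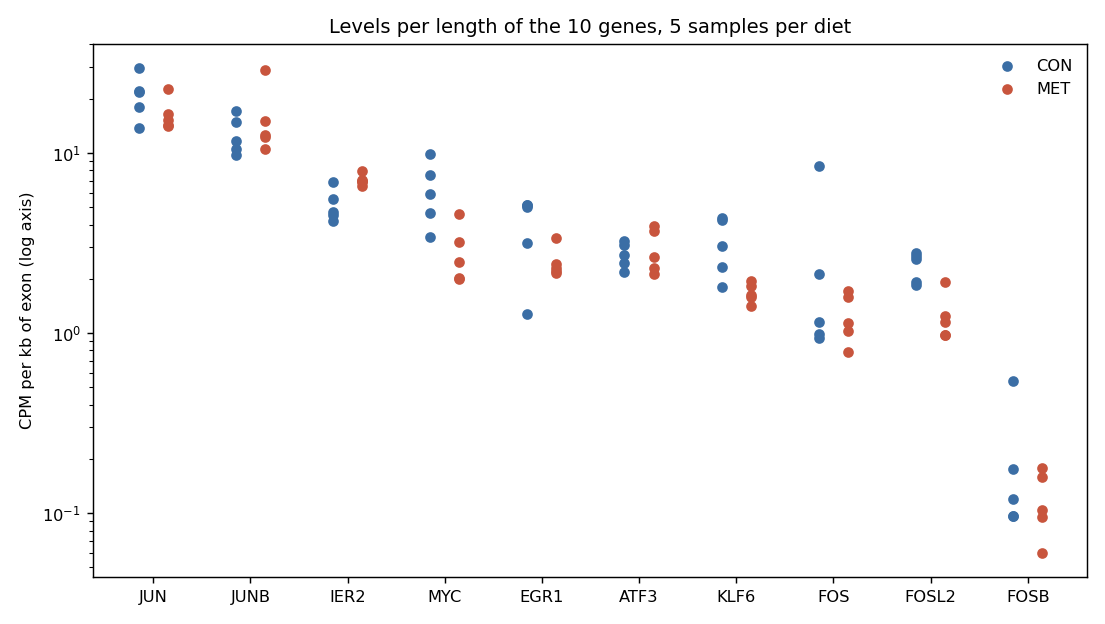
CPM per kb of exon (y axis, log scale) of the 10 genes (x axis, in order of their mean) in 5 CON and 5 MET samples (points). JUN and JUNB lead, FOSB lies below 1 in each sample, and one CON point of FOS at 8.45 lies above the rest of that gene.

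The members did not share one order of calves. CON replicate 2 was the highest of the 10 samples for 3 of the 10 genes (FOS, FOSB and MYC), CON replicate 3 for JUN and KLF6, and CON replicate 3 was also the lowest for EGR1 and IER2. MET replicate 5 was the highest for JUNB and the lowest for FOSL2. Against FOS, the Pearson r of log2 CPM over the 10 samples ran from 0.080 for IER2 to 0.64 for MYC. For MYC, r = 0.64 (permutation p = 0.029, adjusted over the 8 correlations 0.23) and Spearman's rho = 0.37 (permutation p = 0.29, adjusted 0.85), and r was −0.098 without the 2 samples farthest from the median of FOS, so that the relation rested on those samples. JUNB had r = 0.49 (permutation p = 0.12, adjusted 0.50) and rho = 0.67 (permutation p = 0.038, adjusted 0.30), and r of 0.74 without those 2 samples (permutation p = 0.024, adjusted 0.19). None of the 8 passed the adjustment. On deviations from the diet means r was 0.64 for MYC, 0.64 for JUNB and 0.54 for IER2, and each diet alone holds too few samples for a correlation.

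**Figure D4:**
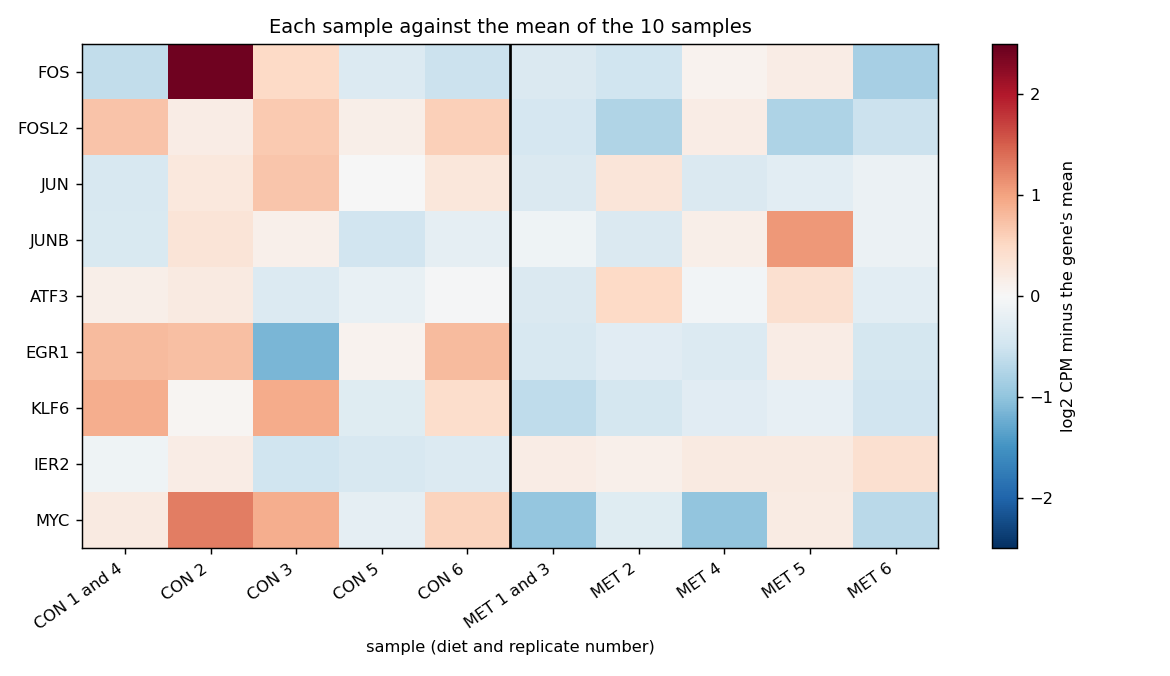
Log2 CPM of the 9 tested genes (rows) minus the gene's mean over the 10 samples, in 5 CON and 5 MET samples (columns, divided by the black line), red above and blue below the mean. The rows of FOSL2, KLF6 and MYC are mostly red in CON and blue in MET, IER2 is mostly the reverse, and the darkest cell is FOS in CON replicate 2.

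Among all genes tested, those whose log2 CPM followed FOS most closely over the 10 samples were ITM2C (r = 0.90), LDAH (r = 0.88) and KIAA1143 (r = 0.86), each with its highest level in CON replicate 2, as FOS. The closest to MYC were AGAP1 (r = 0.94), MBNL1 (r = 0.93) and PTPN21 (r = 0.93). These genes are the top of a ranking over 13212 genes and 10 samples, and the values are a description.

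Of 48 tested genes on a list of 56 other immediate early genes, 2 were called over the 12 libraries, both lower in MET (4.17%, near the 4.41% of all genes), and the median log2 fold change was −0.11. TNFAIP3, the A20 inhibitor of NF-kappaB signalling, was 22.7 ± 6.05 CPM in CON and 13.2 ± 2.17 CPM in MET (SD, n = 5 each; log2 fold change −0.69, adjusted p = 0.078 over the 12 libraries and 0.17 over the 10 samples). CCN2, the connective tissue growth factor, was 4.46 ± 0.966 and 2.93 ± 0.466 CPM (SD, n = 5 each; −0.66, adjusted p = 0.085 and 0.20, both by the Benjamini-Hochberg adjusted quasi-likelihood test of edgeR). The most abundant genes of the list were ERRFI1, the feedback inhibitor of the EGF receptor, with 365.8 CPM in CON and 266 CPM in MET (log2 fold change −0.54, adjusted p = 0.11 over the 12 libraries and 0.27 over the 10 samples by the same edgeR test), the survival factor MCL1 (295.6 and 221 CPM, −0.41), the antiproliferative BTG2 (283 and 254 CPM, −0.13) and CEBPD (137 and 151 CPM, 0.094). None of these 4 passed the test.

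Among AP-1 partners and relatives, 1 of 17 tested genes was called (5.88%, near the 4.41% of all genes), and it was higher in MET. This was DDIT3 (CHOP), the zipper protein of endoplasmic reticulum and amino acid stress, with 17.7 ± 2.04 CPM in CON and 26.02 ± 2.66 CPM in MET (SD, n = 5 each; log2 fold change 0.52, adjusted p = 0.045 over the 12 libraries and 0.16 over the 10 samples, Benjamini-Hochberg adjusted quasi-likelihood test of edgeR). All MET samples of DDIT3 (23.1 to 30.4 CPM) were above all CON samples (15.8 to 20.3 CPM), as for 1.93% of all genes tested. The median of the list was −0.15. Its abundant genes ATF4 (log2 fold change 0.23), ATF5 (−0.38) and NFE2L1 (−0.15) did not pass.

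Of 13 tested genes of the KLF family and its relatives SP1 and SP3, KLF6 not included, 2 were called (15.4%, against 4.41% of all genes), both lower in MET, as 2.32% of all genes were. The list was chosen with earlier results of these data known, so that this share is not independent of the choice. KLF9, a target of glucocorticoid and thyroid hormone receptors, had 9.05 ± 1.96 CPM in CON and 4.02 ± 2.08 CPM in MET (SD, n = 5 each; log2 fold change −1.05, adjusted p = 0.087 over the 12 libraries and 0.18 over the 10 samples), and KLF5 was 1.79 ± 0.573 and 0.909 ± 0.287 CPM (SD, n = 5 each; −1.13, adjusted p = 0.072 and 0.18, both by the Benjamini-Hochberg adjusted quasi-likelihood test of edgeR). The fold change was below 0 in 11 of the 13, with a median of −0.27. The abundant KLF15, a regulator of amino acid breakdown and gluconeogenesis, had 59.1 CPM in CON and 63.5 CPM in MET (log2 fold change 0.11), and KLF3 (−0.27), KLF11 (−0.36) and KLF10 (−0.019) did not pass the test either.

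Around MYC, 0 of 16 tested genes of its network of dimer partners, antagonists and turnover factors were called over the 12 libraries (4.41% of all genes) in edgeR's quasi-likelihood test, or by DESeq2, and 0 reached an unadjusted p of 0.05 over the 10 samples (16.3% of all genes), with a median log2 fold change of −0.033. Abundant genes among them were MLXIPL, the carbohydrate response factor ChREBP (155 and 183 CPM, 0.26), MLX (67.7 and 75.3 CPM, 0.14) and MYCBP2 (53.3 and 46.2 CPM, −0.26). Genes of growth and ribosome building that are often named as MYC targets had a median on the other side of 0 from MYC. Of 41 tested, 3 were called (7.32%, against 4.41% of all genes) and all 3 were higher in MET, as 2.09% of all genes were. A fold change above 0 was seen in 31 of the 41. The median log2 fold change was 0.17 over the 12 libraries and 0.13 over the 10 samples, against −0.0031 and −0.0028 over all genes tested. NPM3, a nucleolar chaperone relative, had 1.58 ± 0.512 CPM in CON and 4.32 ± 1.39 CPM in MET (SD, n = 5 each; log2 fold change 1.36, adjusted p = 0.047 over the 12 libraries and 0.16 over the 10 samples, Benjamini-Hochberg adjusted quasi-likelihood test of edgeR), with no overlap between the diets, as for 1.93% of all genes. The ribosome assembly genes IMP4 (34.96 and 48.4 CPM, 0.52, adjusted p = 0.069 and 0.19) and PES1 (50.2 and 72.5 CPM, 0.52, adjusted p = 0.091 and 0.19, by the same edgeR test) overlapped between the diets. Of the abundant genes, NCL (0.19), HSPD1 (0.051), HSPE1 (0.37) and LDHA (0.19) did not pass. The lowest values of the list, named after they were seen, were those of the transferrin receptor TFRC (−1.12, adjusted p = 0.102 over the 12 libraries and 0.18 over the 10 samples) and of cyclin D1, CCND1 (−1.01, adjusted p = 0.12 and 0.22, by the same edgeR test), which did not pass either.

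In the kinase route to SRF and CREB sites, 1 of 31 tested genes was called (3.23%, against 4.41% of all genes), and the median log2 fold change was −0.0025. MAP2K3, an activator of p38, had 42.2 ± 4.62 CPM in CON and 56.5 ± 6.04 CPM in MET (SD, n = 5 each; log2 fold change 0.45, adjusted p = 0.063 over the 12 libraries and 0.18 over the 10 samples, Benjamini-Hochberg adjusted quasi-likelihood test of edgeR), without overlap between the diets, as for 1.93% of all genes. The abundant MAPK14 (0.068), MAPKAPK2 (−0.0025), NRAS (−0.22) and MAP2K2 (0.36) did not pass. All 6 lists were chosen with earlier results of these data known. Over the 6 lists, 9 of 166 tested genes were called, or 5.42%, against 4.41% of all genes, with 5 higher and 4 lower in MET. Over the 10 samples the quasi-likelihood test called 0 of them, and DESeq2 called 9.

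**Figure D5:**
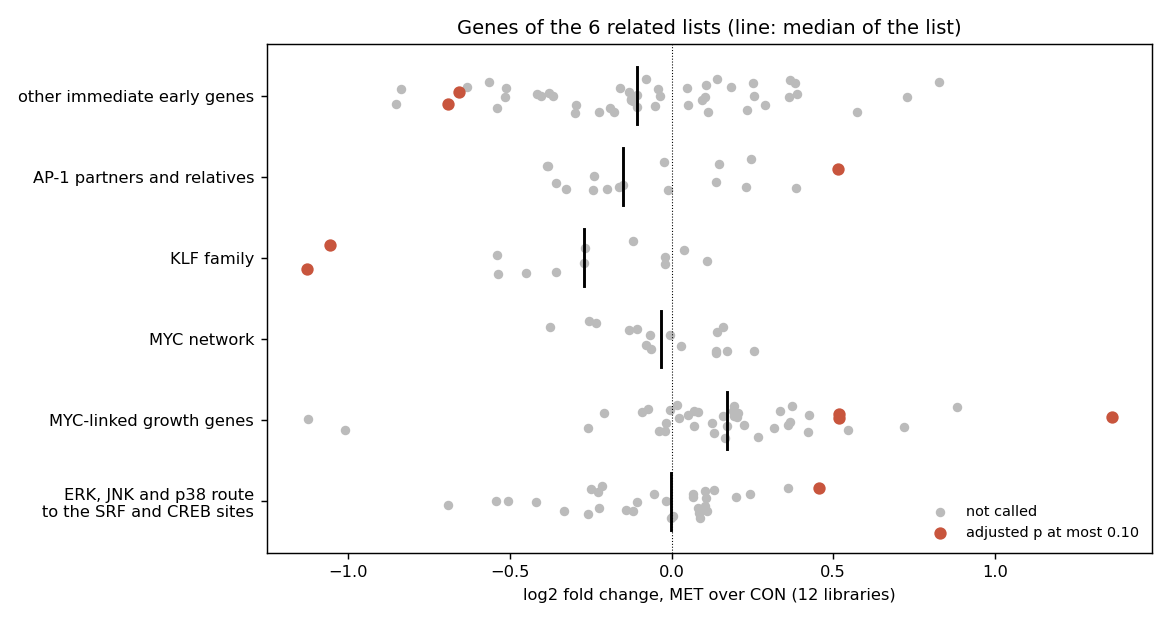
Log2 fold change over the 12 libraries (x axis, MET over CON) of the tested genes of the 6 related lists (y axis, points spread within a list for legibility), with called genes in red and the list's median as a line. The medians run from −0.27 in the KLF family to 0.17 in the MYC-linked growth genes, and 9 points are red.

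Of 60 tested markers of the 9 cell types, 5 were called over the 12 libraries (8.33%, against 4.41% of all genes tested), and over the 10 samples the same test called none, as it called 0 genes in all. The 9 detected markers of Kupffer cells and macrophages were all higher in MET over the 12 libraries, with C1QB and C1QC called, and their summed level was 1375 to 1830 CPM in CON and 1632 to 2165 CPM in MET. The 10 markers of stellate cells and fibroblasts were higher in 1 and lower in 9, with LUM called lower, and summed to 672 to 1007 CPM in CON and 515 to 889 CPM in MET. The cholangiocyte sum was 61.7 to 102 CPM in CON and 41.1 to 82.5 CPM in MET, with CFTR called lower. APOB was the single hepatocyte marker called, lower in MET. Of the remaining lists, none had a called marker, namely endothelial cells (408 to 636 and 369 to 641 CPM), T and NK cells (19.1 to 30.7 and 17.4 to 36.8 CPM), B and plasma cells (8.30 to 19.8 and 9.86 to 14.3 CPM), neutrophils (13.6 to 49.0 and 17.2 to 147 CPM) and the erythroid line (8.82 to 1084 and 65.7 to 590.6 CPM) in edgeR's quasi-likelihood test. Over the 12 libraries, 3 of 10 tested hepatocyte markers, 1 of 5 of cholangiocytes and 5 of 10 of endothelial cells were higher in MET. The same held for 5 of 7 markers of T and NK cells and 1 of 2 of B and plasma cells. It also held for 4 of 4 neutrophil and 2 of 3 erythroid markers. The sums of all 9 lists overlapped between the diets. Their part in the differences of FOSL2, KLF6, MYC and IER2 was not tested.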

How the data were processed

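For each calf, the authors deposited raw counts of reads per gene, by Entrez gene ID and without normalization. Reads were trimmed with Trimmomatic, aligned with STAR 2.5.3a to UMD 3.1.1 and assigned to exons on the stated strand with featureCounts (Subread 1.5.2), leaving out reads with several matches. RefSeq names came from a table of a later assembly, which served for chromosome numbers, while positions are those of the count files.

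CPM used the TMM factors of edgeR 4.0.16 (R 4.3.3). Its default filter (minimum count 10, minimum total 15) left 13212 of 21227 genes with a read, which were tested with the quasi-likelihood test on diet alone, with Benjamini-Hochberg adjustment over all of them and a threshold of 0.10, as in the study's methods. An SE is the log2 fold change divided by the root of its F value. In the 10 samples the reads of a near-identical pair were summed for the fit and their CPM averaged for means. Single values were compared by exact permutation over 252 arrangements, and correlations by 100000 resamples, on log2 CPM (prior count 2). The fits were tested on simulated data. Alternatives used DESeq2 1.42.0 and limma 3.58.1, other scalings, filters and left-out libraries. Figures were drawn with Python 3.11.15.

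The members and lists were chosen with earlier results of these data known. Named from each list were up to 6 genes called, by lowest p, and up to 4 of the highest CPM, and for FOS and MYC the 3 genes of highest r. Some of the genes so chosen are not reported here. No sequence is shown, as none was used here.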

Additional observations from a re-analysis of the deposited data

Results flagged for a closer look

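In 20 groups (10 genes in 5 CON and in 5 MET samples), 6 held a sample far from its group, with a gap to the nearest sample over 0.71 of the group's range. Chance flags about 1 in 20 groups of normally distributed values. CPM values need not follow that distribution, so that the 6 flags cannot be set against that rate. CON replicate 2 was set apart for FOS (17.7 CPM, the others 1.96 to 4.46) and for FOSB (1.76 CPM, the others 0.311 to 0.572). MET replicate 5 was set apart for JUNB (52.6 CPM, the others 19.1 to 27.3) and for EGR1 (7.27 CPM, the others 4.64 to 5.17). MET replicate 2 was set apart for JUN (44.0 CPM, the others 27.6 to 32.3) and MET replicate 4 for FOSL2 (12.7 CPM, the others 6.38 to 8.19). The flagged sample was the highest of its group each time.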

How the results depend on the processing

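Of 4 members, 9 genes of the related lists and 583 genes in all, summing the pairs left 0, 0 and 0, and so did dropping 1 library of each pair, an alternative chosen after seeing the data, while DESeq2 on the summed pairs, also added later, gave 4, 9 and 639. Treating replicates of the same number as blocks gave 1 (FOSL2, adjusted p = 0.091 by edgeR), 0 and 6. The deviations of same-numbered libraries correlated with r from −0.19 to 0.15 and above 0.1 in 1 of 6. Such values cannot tell whether the numbers pair the calves. List genes and all genes called were 2 and 107 with library size only, 4 and 238 without the filter, 22 and 1314 with DESeq2 and 3 and 245 with the gene length trend removed, where members called were 4, 3, 5 and 3. Leaving out 1 library gave 0 to 4 members, 0 to 8 list genes and 26 to 565 genes. Leaving out 1 of the 10 samples, also added later, gave 0 members in each fit, and 2 list genes and 39 genes without MET replicates 1 and 3, with 0 and 0 in the other 9 fits. In those fits JUNB was −0.014 without MET replicate 5, and ATF3 was −0.032 and −0.00031 without MET replicates 2 and 5. RLE factors, voom and robust dispersions gave 4 members. ATF3 turned to −0.030 with voom, −0.022 with the replicate block and, in mean log2 CPM, −0.024 over the 12 libraries, and with libraries left out ran from −0.12 to 0.089, or −0.038 to 0.152 in mean log2 CPM. FOS ran from −1.13 to 0.0061. The r with FOS turned, on deviations from diet means, for FOSL2 (−0.19) and KLF6 (−0.16), and without the 2 farthest samples for FOSL2 (−0.19), JUN (−0.33), EGR1 (−0.12), KLF6 (−0.21) and MYC (−0.098). The causes were not tested. Depth limits FOSB, which had 2 to 14 reads. The p-values over the 10 samples measure the spread between 5 samples per diet. Those over the 12 libraries measure the spread between 6 libraries per diet, with both libraries of each near-identical pair counted. The labels name the libraries as calves.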
